A study of Mus musculus with 4 samples.

Results

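MicroRNA genes that mark epithelium, with a muscle and a blood microRNA gene set beside them, were examined in the open chromatin of mouse salivary gland organoids (mSGOs). The set was 10 genes chosen by name and found by symbol in a RefSeq gene table of GRCm38.p6. It was drawn from 1228 microRNA genes in that table. Epithelial members were Mir205, Mir200a, Mir200b, Mir200c and Mir203, together with Mir21a, Mir31 and Mir34a, which are also made in many other tissues. Mir1a-1 stood for muscle and Mir223 for blood.

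The organoids came from submandibular glands of C57BL/6 mice, were not irradiated, and were grown in Matrigel in WRY medium with EGF, FGF2, Wnt3a and R-spondin1. The labels list 4 bulk ATAC-seq samples, 2 from passage 1 and 2 from passage 2. Each passage had a sample labelled 12 weeks and another labelled 3 months of age. The study used female mice only. ATAC-seq uses the Tn5 transposase to find stretches of the genome that are not packed away. The values used here are 1 list of open regions for the series, so that passages and ages could not be compared, no spread between samples can be given and depth per sample is unknown. The study describes a consensus set over all organoid samples, whose number of peaks differs from that of this list, and it is not known whether the list is that set or which samples went into it. The list holds 32011 distinct regions with a median width of 402 bp. Each region carries a fold, which is the signal at its strongest summit over the local background, and an IDR score of up to 1000 for how reproducibly it was found. A region says that DNA was accessible, not that a microRNA was made. All counts and folds below therefore describe this list, without a test between conditions.

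A microRNA is cut from a hairpin in a longer transcript, which often starts several kb away in a host gene. The processed strand of about 22 bases then finds its targets mainly through its seed, bases 2 to 8 from the 5′ end. The miR-200 family and miR-205 hold cells in an epithelial state by repressing Zeb1 and Zeb2, a pair of repressors of epithelial genes that in turn bind E-boxes near miR-200 genes. In stratified and glandular epithelia, miR-203 limits p63, the master factor of basal cells. Of the others, miR-21 lowers Pdcd4, miR-34a is a target of p53, miR-1 belongs to heart and skeletal muscle, and miR-223 to myeloid cells.

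The mature strands are shown because they divide the members into families that the gene positions do not. Sequences are from RefSeq (GRCm38.p6), with the seed in capitals.
miR-200b-3p: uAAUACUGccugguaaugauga
miR-200c-3p: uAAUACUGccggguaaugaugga
miR-429-3p: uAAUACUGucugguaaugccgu
miR-200a-3p: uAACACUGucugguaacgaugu
miR-141-3p: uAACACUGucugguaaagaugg
miR-205-5p: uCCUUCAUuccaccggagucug
miR-203-3p: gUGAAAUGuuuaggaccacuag
miR-21a-5p: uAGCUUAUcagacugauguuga
miR-31-5p: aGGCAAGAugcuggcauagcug
miR-34a-5p: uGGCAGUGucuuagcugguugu
miR-223-3p: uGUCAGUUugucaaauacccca
The seed of miR-200b was identical in miR-200c and miR-429, and that of miR-200a in miR-141. These 5 strands come from 2 clusters, Mir200b, Mir200a and Mir429 on chromosome 4 and Mir200c and Mir141 on chromosome 6, so that each seed is encoded in both. Among the mature strands available here, the seed of miR-34a was shared with 3 others and that of miR-21a with 1. Those of miR-205, miR-203, miR-31 and miR-223 were shared with 0. The strands available lack miR-1a-3p and may lack others, so that these counts can be too low.

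Among the 8 epithelial members, 7 had at least 1 open region within 10 kb of the hairpin and all 8 within 50 kb. Mir1a-1 and Mir223 had 0 regions within either distance. Of all microRNA genes in the table, 38.4% had a region within 10 kb and 73.5% within 50 kb (471 and 902 of 1228). The count at 10 kb was therefore well over the background share, whereas a region within 50 kb was common for any microRNA gene. The members were chosen with earlier results of these data known, so that the difference at 10 kb is a description and not independent support. Mir200a and Mir200b lie in the same cluster and share their regions, so the 8 epithelial members are 7 loci, of which 6 had a region within 10 kb. With all microRNA genes under 10 kb apart joined into loci, the background share at 10 kb was 42.9%.

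**Figure D1:**
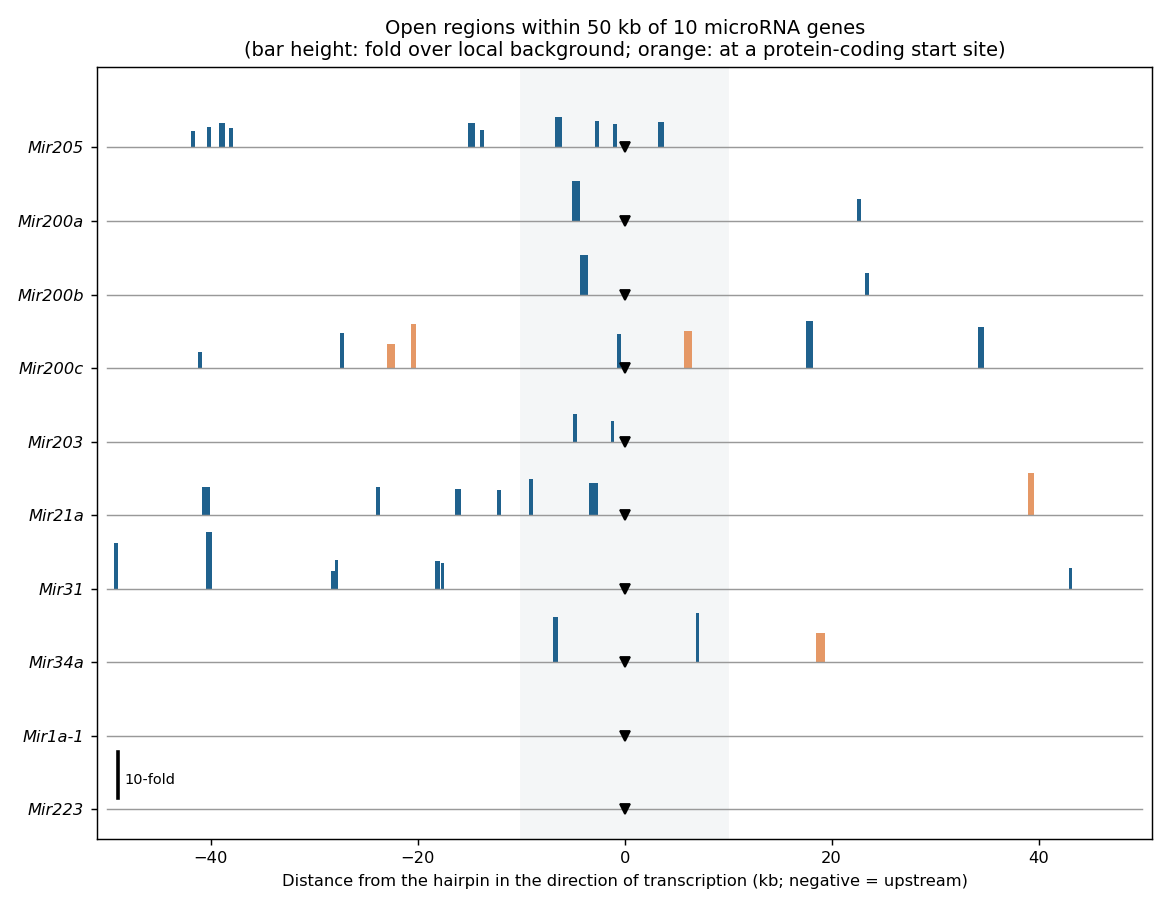
Distinct open regions around each hairpin (black triangle), drawn by distance in kb along the direction of transcription, with upstream to the left; bar height is the fold over local background, the shaded band marks 10 kb either side, the narrowest regions are widened to be visible, and orange bars lie at a protein-coding start site. Regions cluster upstream of Mir205, Mir21a and Mir31, and the lines of Mir1a-1 and Mir223 hold 0 bars.

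Mir205 had the most regions of the members. Its hairpin lies on chromosome 1 from 193507463 to 193507530, on the minus strand, within the noncoding host gene Mir205hg. Within 10 kb it had 4 regions and within 50 kb 10. Only 0.896% of all microRNA genes (11 of 1228) had 4 or more regions within 10 kb. Mir205, Mir200c, Mir21a and Mir31 each had 7 or more regions within 50 kb, as had 6.11% of all microRNA genes. Not 1 protein-coding start site lay within 50 kb of Mir205, so that 0 of its regions belonged to a neighbouring coding promoter. Of its 10 regions, 9 lay upstream. The nearest, from 193508251 to 193508620, ended 0.721 kb upstream of the hairpin inside Mir205hg, with a fold of 5.22. The next, from 193510106 to 193510373, covered the start site of Mir205hg with a fold of 5.74. The strongest, from 193513620 to 193514244, lay 6.09 kb upstream with 3 summits, a fold of 6.64 and an IDR score of 1000. A further group of 4 regions stood between 37.9 and 41.7 kb upstream. Mir205 thus had many regions of modest strength. Its folds ran from 3.66 to 6.64 with a median of 5.31, and all 10 were below 7.11, the median of the whole list.

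The cluster of Mir200b, Mir200a and Mir429 showed the opposite layout, with few regions and a strong one. Mir200b lies on chromosome 4 from 156055681 to 156055750 and Mir200a from 156054896 to 156054985, both on the minus strand. Both lie inside the noncoding gene Gm13648, which runs the same way. A region from 156059313 to 156060095 covered the start site of Gm13648, 4.05 kb upstream of Mir200b and 4.82 kb upstream of Mir200a. It had 4 summits, an IDR score of 1000 and a fold of 8.70, higher than 69.6% of the list. The other region within 50 kb lay 22.4 kb downstream of Mir200a, with a fold of 4.74. With 2 regions within 50 kb, both genes were at the median of all microRNA genes, which was also 2.

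The hairpin of Mir200c, on chromosome 6 from 124718322 to 124718390 on the minus strand, had the closest region of all members. That region, from 124718798 to 124719105, ended 0.408 kb upstream of the hairpin. It had a single summit, a fold of 7.42 and an IDR score of 1000, and overlapped no annotated gene. Mir141, its cluster mate, lies 0.813 kb from it. Within 50 kb, Mir200c had 8 regions, but the locus is crowded with coding genes. A region 5.78 kb downstream lay at the shared promoter of Emg1 and Phb2, and regions at 20.1 and 22.2 kb upstream at the start sites of Ptpn6 and Grcc10. Without the regions at protein-coding start sites, Mir200c kept 5. The folds of its regions were between 3.56 and 10.3.

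Mir203, on chromosome 12 from 112130880 to 112130955 on the plus strand, had 2 regions within 10 kb, and these were also all it had within 50 kb. Both lay upstream, and neither at an annotated start site. The nearer, from 112129548 to 112129813, was 1.07 kb from the hairpin and weak, with a fold of 4.40 that exceeded only 4.48% of the list. The farther, from 112125882 to 112126278, was 4.60 kb away inside Aspg, with a fold of 6.08 and an IDR score of 1000. In the gene table, another microRNA entry, Gm51289, overlaps the Mir203 hairpin, and regions near them cannot be told apart.

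Mir21a lies on chromosome 11 from 86584067 to 86584158, at the end of the coding gene Vmp1, on the same minus strand. Vmp1 makes a membrane protein of autophagy. Of the 7 regions within 50 kb of Mir21a, 6 lay upstream, all inside Vmp1 and none at a protein-coding start site. The nearest, from 86586771 to 86587616, lay 2.61 kb upstream and had 5 summits, a fold of 7.11 and an IDR score of 1000. The second lay 8.92 kb upstream with a fold of 7.87. Over its whole length, Vmp1 held 8 regions. Its own promoter, 87.0 kb from the Mir21a hairpin by the closest start site and hence outside the window, was covered at another of its start sites by a region from 86683535 to 86684186 with a fold of 10.3.

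Mir31, on chromosome 4 from 88910557 to 88910662 on the minus strand, was the epithelial member without a region within 10 kb. Its nearest region lay 17.6 kb upstream, with a fold of 5.60. Yet 7 regions lay within 50 kb, 6 of them upstream, and 4 of these inside Gm49890, a noncoding gene of 32.2 kb that contains Mir31. The start site of Gm49890 had 0 regions, the nearest being 3.02 kb away. Beyond it, 39.9 kb from the hairpin, was the highest fold of all members, 12.3, at a region from 88950533 to 88951071 that overlapped no annotated gene. Another, 49.0 kb upstream, had a fold of 9.93.

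Mir34a, on chromosome 4 from 150068454 to 150068555 on the plus strand, overlapped no host gene in the table. It had 2 regions within 10 kb, 1 on each side and both with an IDR score of 1000. The upstream region, from 150061490 to 150062019, was 6.43 kb away with 3 summits and a fold of 9.91. The downstream region, from 150075431 to 150075715, was 6.88 kb away with a fold of 10.7. Another region, 18.5 kb downstream, lay at the start site of Gpr157 with a fold of 6.44.

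**Figure D2:**
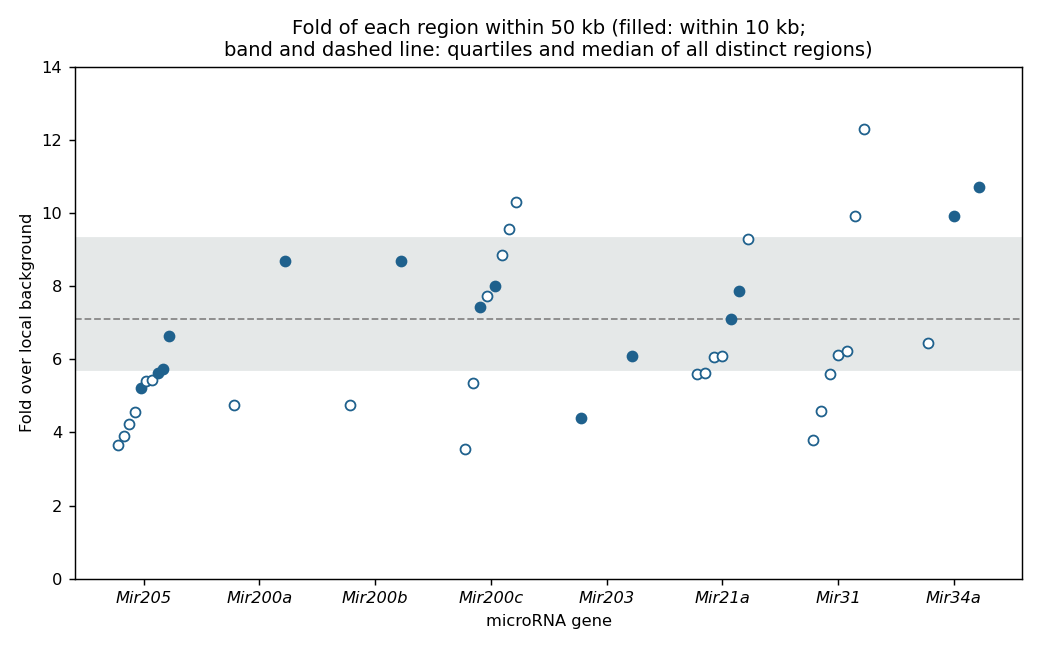
Fold over local background (linear axis) of every region within 50 kb of each epithelial member, with filled points for regions within 10 kb; the grey band gives the quartiles of all 32011 regions, 5.70 and 9.32, and the dashed line their median, 7.11. All points of Mir205 lie below the median, and the filled points of Mir34a above the band.

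Neither Mir1a-1 nor Mir223 had an open region near the hairpin or in the host gene. Mir1a-1 lies on chromosome 2 from 180389048 to 180389124, inside Mir1a-1hg, and its nearest region was 98.9 kb away. Mir223 lies on chromosome X from 96242817 to 96242926, inside F630028O10Rik, and its nearest region was 107.0 kb away. Both sit in sparse stretches, with 0 protein-coding start sites within 50 kb. Among the 407 microRNA genes with no such start site in that window, 46.2% had a region within 50 kb, against 87.0% of the 821 others. On chromosome X, 27.2% of 92 microRNA genes had a region within 50 kb, against 77.2% of autosomal ones, and within 10 kb the shares were 8.70% and 40.8%. Mir205, with 0 protein-coding start sites within 50 kb, had 10 regions. The part of sparse surroundings and of chromosome X in the empty windows was not tested. Within 500 kb, Mir1a-1 had 26 regions and Mir223 had 10, where the epithelial members had between 22 and 46 and the median microRNA gene 19.

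**Figure D3:**
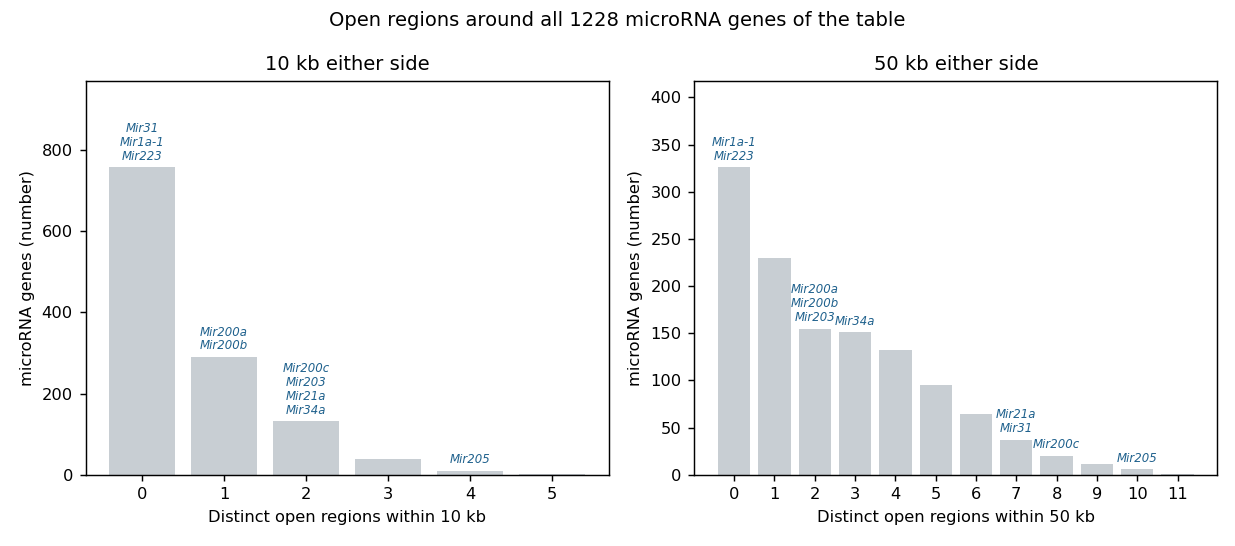
Number of microRNA genes (vertical axis) by their number of distinct regions within 10 kb (left) and 50 kb (right), with the members named above their bars. Mir205 stands in the right tail of both, with 4 and 10 regions, and Mir1a-1 and Mir223 at 0 in both.

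The position of regions relative to the direction of transcription was not part of how the members were chosen. For all 10 members, the nearest region lay upstream of the hairpin, in Mir1a-1 and Mir223 as in the 8 epithelial members. Mir200a and Mir200b share that region. Among the 834 microRNA genes with a known strand and a region within 50 kb, the nearest region was upstream in 53.2%, and among the 440 with a region within 10 kb in 56.8%. Mir1a-1 and Mir223, with their nearest regions 98.9 and 107.0 kb away, are in neither share. The 53.2% therefore stands beside the 8 epithelial members, which are 7 loci, and not beside all 10. Of the 39 distinct regions within 50 kb of a member, 30 lay upstream and 9 downstream, and 0 overlapped a hairpin. Most of the upstream ones came from 3 loci, with 9 at Mir205 and 6 each at Mir21a and Mir31. Mir200c had 5 upstream and 3 downstream, Mir34a 1 and 2, Mir203 2 and 0, and Mir200a and Mir200b the same 1 and 1. This split was not computed over all microRNA genes. Only 5 of the 39 (12.8%) were within 1 kb of a protein-coding start site, compared with 28.3% of the whole list. Pooled, the 39 regions lay towards the lower side of the list by fold. Their median fold was 6.08 against 7.11, and 14 of 39 were above the median of the list. None of the 14 was among the 10 regions of Mir205. By member, the median fold was above 7.11 only for Mir200c (7.88) and Mir34a (9.91). Of the 39, 17 (43.6%) had an IDR score of 1000 against 45.1%, and their median width was 402 bp, as in the list.

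Host genes differed in whether their start site was open. Start sites of Mir205hg, Gm13648 and Vmp1 each had a region whose midpoint lay within 1 kb. Those of Gm49890, the host of the epithelial member Mir31, and of Mir1a-1hg and F630028O10Rik did not. Among noncoding (lncRNA) genes of the table, 14.8% had such a region, and among protein-coding genes 41.0%. Of the 5 noncoding hosts, the promoters of 4 are shown, 2 at open regions and 2 not, and those of Gm49890 and Vmp1 are described after them. Each runs from 250 bases before to 50 bases after the RefSeq start site on GRCm38.p6. Capitals mark CACCTG, the E-box that ZEB and SNAI repressors bind, CAGCTG, an E-box of MyoD-type muscle factors, and GAGGAA, the core of PU.1, a factor of myeloid cells, on either strand and without overlaps between them. In all 32851 promoter windows, 20.2% held CACCTG, 16.3% CAGCTG and 28.3% GAGGAA. The window of Mir205hg is chr1:193510161-193510460, that of Gm13648 chr4:156059753-156060052, that of Mir1a-1hg chr2:180385354-180385653 and that of F630028O10Rik chrX:96239676-96239975.
Mir205hg: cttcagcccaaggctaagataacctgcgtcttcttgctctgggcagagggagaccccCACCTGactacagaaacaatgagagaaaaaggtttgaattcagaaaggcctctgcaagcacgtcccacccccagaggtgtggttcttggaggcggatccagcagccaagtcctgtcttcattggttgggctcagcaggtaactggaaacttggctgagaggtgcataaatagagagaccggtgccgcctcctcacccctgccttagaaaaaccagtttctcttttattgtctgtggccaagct
Gm13648: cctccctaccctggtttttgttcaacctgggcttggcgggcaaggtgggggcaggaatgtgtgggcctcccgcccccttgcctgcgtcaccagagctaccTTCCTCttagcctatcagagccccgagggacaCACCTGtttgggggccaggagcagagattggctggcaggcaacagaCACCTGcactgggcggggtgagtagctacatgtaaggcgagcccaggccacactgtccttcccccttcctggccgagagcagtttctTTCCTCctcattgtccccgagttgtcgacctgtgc
Mir1a-1hg: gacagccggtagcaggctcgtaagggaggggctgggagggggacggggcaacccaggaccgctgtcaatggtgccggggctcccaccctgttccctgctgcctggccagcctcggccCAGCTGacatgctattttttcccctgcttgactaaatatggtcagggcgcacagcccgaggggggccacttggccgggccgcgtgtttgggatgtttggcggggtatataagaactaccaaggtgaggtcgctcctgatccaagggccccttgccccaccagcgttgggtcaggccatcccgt
F630028O10Rik: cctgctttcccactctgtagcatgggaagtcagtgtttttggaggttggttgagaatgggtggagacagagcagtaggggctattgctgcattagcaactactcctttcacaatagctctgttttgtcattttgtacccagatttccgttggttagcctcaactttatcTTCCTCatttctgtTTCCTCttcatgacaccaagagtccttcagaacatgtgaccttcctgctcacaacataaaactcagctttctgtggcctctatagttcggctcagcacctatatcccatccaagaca
The Gm13648 window lay wholly inside its open region and held CACCTG at 2 places, which began 118 and 72 bases before the start site, besides GAGGAA at 2 places. Of the Mir205hg window, 213 of 300 bases lay in the open region. Its single CACCTG stood 193 bases before the start site and 25 bases outside that region. The Mir1a-1hg window held CAGCTG once, 133 bases before the start site, and the F630028O10Rik window held GAGGAA at 2 places, 81 and 67 bases before it, both in DNA without a listed region. The window of Gm49890, the host of Mir31, overlapped 0 bases of a region and held none of the 3 motifs. In Vmp1, the host of Mir21a, 0 of 3 windows held CACCTG, while 1 held CAGCTG and 2 held GAGGAA. Among the 4 windows shown, base composition did not divide the open from the closed ones. GC content was 52.3% for Mir205hg and 61.7% for Gm13648, and 64.3% for Mir1a-1hg and 45.3% for F630028O10Rik, with a median of 52.7% over all windows. The ratio of observed to expected CpG was 0.244 and 0.316 for the open pair and 0.485 and 0.132 for the closed pair. The windows not shown did differ. In Vmp1, the 2 windows at a region had GC contents of 60.3% and 61.7% and CpG ratios of 1.03 and 0.773. Its window without a region had 42.3% and 0.0821, and that of Gm49890, also without one, 53.3% and 0.19. The motifs are matches of letters, and binding was not measured.

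Other microRNA genes were then placed beside the members by tissue. Of 8 further epithelial microRNA genes, 3 had a region within 10 kb and 7 within 50 kb, against 38.4% and 73.5% of all microRNA genes. The 3 were Mir182, Mir183 and Mir96, a cluster of sensory and epithelial cells, with the nearest region 2.23 kb from Mir182. Mir375, an endocrine and secretory microRNA, had 0 regions within 50 kb, and Mir192, Mir194-1, Mir194-2 and Mir215 of gut and kidney had their nearest regions 11.6 to 15.9 kb away. Mir34b and Mir34c, the p53-linked relatives of Mir34a, both had a region within 10 kb. Of 12 growth-linked microRNA genes, 9 did, including all 6 genes of the Mir17 cluster, whose nearest region, 1.15 to 1.91 kb away, was the same and had a fold of 8.24. Mir23a and Mir27a also shared their nearest region, as did Mir34b and Mir34c.

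The muscle and blood lists did not behave as Mir1a-1 and Mir223 did. Of 9 muscle microRNA genes, 4 had a region within 10 kb and 5 within 50 kb, and of 6 blood microRNA genes 3 and 5. At 10 kb these counts, like that of the further epithelial genes, were near the 38.4% of all microRNA genes, and are not a result about the lists. Within 50 kb the share over all microRNA genes was 73.5%, and the muscle count lay below it. A region from 20678867 to 20679230 on chromosome 1, with a fold of 9.29 and an IDR score of 1000, covered the hairpin of Mir206, a skeletal muscle microRNA of the miR-1 family, and lay 3.54 kb from Mir133b. By contrast, Mir1a-2, a close relative of Mir1a-1, and Mir133a-1 beside it on chromosome 18 each had 0 regions within 50 kb. So did Mir133a-2, the cluster mate of Mir1a-1. Among blood microRNA genes, Mir150, a lymphocyte microRNA, had a region 2.48 kb away, and Mir144 and Mir451a of red cells shared a region about 7 kb away. Mesenchymal and endothelial genes had regions within 10 kb in 4 of 6 cases and neural and liver genes in 1 of 7. Of those 4, Mir199a-2 and Mir214 shared their nearest region, and so did Mir145a and Mir143. Counts and medians of the lists take cluster mates singly, without joining them into loci. Median counts within 50 kb were 5 for the epithelial members, 5 for growth-linked, 4 for further epithelial and 2 for p53-linked genes. They were 2 for muscle, 3 for blood, 6 for mesenchymal and endothelial, and 1 for neural and liver genes. Among muscle and blood genes, empty windows of 50 kb were thus found at Mir223, Mir1a-1, Mir1a-2, Mir133a-1 and Mir133a-2, and not at either list as a class. In other lists, Mir375, Mir9-2 and Mir124a-2 also had 0 regions within 50 kb.

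**Figure D4:**
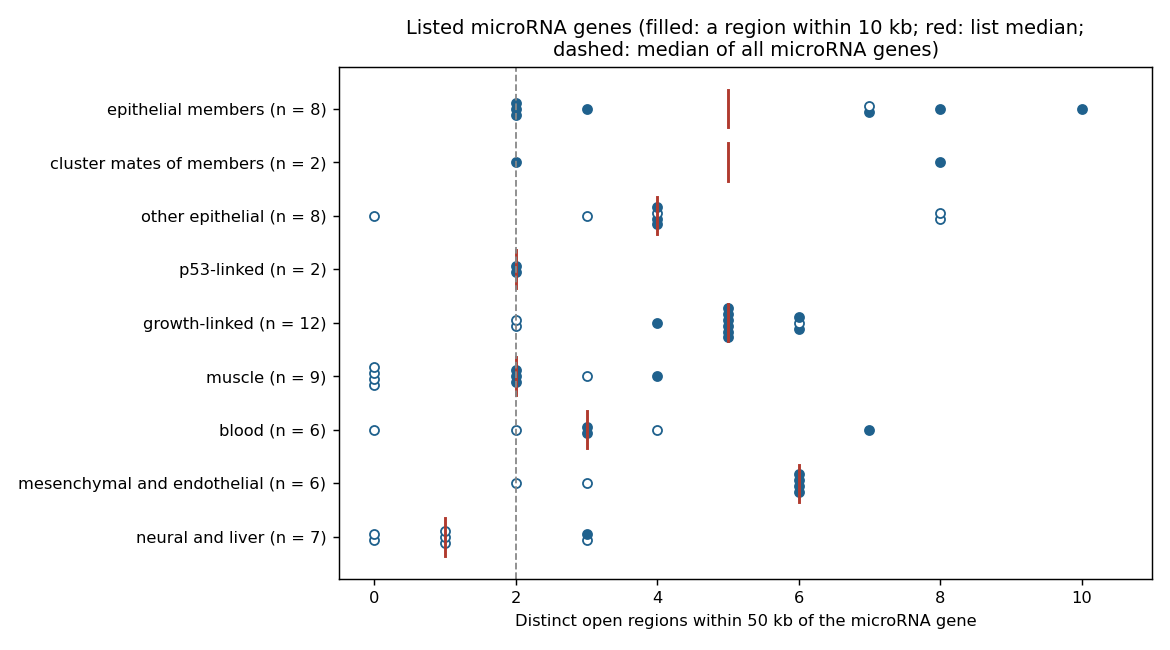
Distinct regions within 50 kb (horizontal axis) of each listed microRNA gene, 1 point per gene, filled where a region lies within 10 kb; red lines give list medians and the dashed line the median of all microRNA genes, 2. Muscle genes run from 0 to 4 regions and blood genes from 0 to 7, overlapping the epithelial members, which run from 2 to 10.

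Start sites of marker genes of epithelium, muscle and blood were also examined. A region lay within 1 kb of a start site in 4 of 7 epithelial markers, 0 of 8 muscle markers and 0 of 8 blood markers, against 41.0% of all protein-coding genes. The epithelial count was thus not far from that share. The 4 were Epcam and Cdh1, of epithelial adhesion, and the keratins Krt5 and Krt8. Their highest folds at the start were 6.64, 7.77, 2.95 and 5.96, in that order. The region at Krt5 was thus weak, below the lower quartile of the list, 5.70. Krt14, Krt18 and Trp63 had none at their annotated start, although Trp63 held 7 regions within the gene and Krt14 held 1. Of the muscle and blood markers, Ckm, Myh6 and Spi1 each held 1 region within the gene, and Myod1, Myog and Ptprc held 0.

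The machinery that makes and uses microRNAs had open start sites at most of its genes. Of 16 processing and silencing genes, 13 had a region at a start site, where the share over all protein-coding genes was 41.0%. Drosha, the nuclease that frees the hairpin in the nucleus, had a fold of 17.6 there, and its partner Dgcr8 9.79. Xpo5, the exporter, had 6.75, and Dicer1, which cuts the hairpin in the cytoplasm, 6.92. Of the Argonaute genes, Ago1, Ago2 and Ago3 had a region and Ago4 did not. The others without a region were Lin28a and Lin28b, embryonic inhibitors of let-7 processing.

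Of 11 genes that the members are known to repress, 6 had a region at a start site, a share near the 41.0% of all protein-coding genes. Zeb1 and Zeb2, the targets of the miR-200 family and miR-205, had 0 at their start sites and 1 each within the gene. Pdcd4, a brake on translation and a target of miR-21, had a region with a fold of 12.1. Met, a receptor and target of miR-34a, held 8 regions within the gene and 3 at its start. Notch1, another target of miR-34a, had 0 regions at its start and 1 within the gene, and its ligand gene Jag1 had 1 at the start with a fold of 6.22. Among regulators, Trp53, which induces Mir34a, Grhl2, an epithelial factor that raises the miR-200 family, and Stat3, linked to Mir21a, had a region at the start, with folds of 9.92, 8.81 and 10.4, and Myc did not.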

How the data were processed

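Bulk ATAC-seq was measured in 4 mSGO samples. The authors ran the ENCODE ATAC-seq pipeline on 75 bp paired-end reads and deposited its reproducible (IDR optimal) peaks as a single list. Versions of the aligner and caller are not given in the sources used here. For each summit the deposited list holds an IDR score, the caller's ratio (fold) to local background and −log10 q-values, without values by sample. Its p-value column was not used. Depth is therefore unknown, and intervals cover counting error only.

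Lines with the same coordinates were joined into 1 region carrying its strongest summit by q-value. The submitters' processing notes name GRCm39 and HOMER. The list was nevertheless read as GRCm38, because 41.6% of 19120 protein-coding genes had a region by their 5′ end (up to 1 kb) on GRCm38.p6, and 5.30% on GRCm39. Shifting the GRCm38.p6 ends by 50 kb left 4.10%.

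Gene positions were from a RefSeq table of GRCm38.p6, microRNA strands and sequences from RefSeq, and start sites from RefSeq promoter windows, which listed 17491 protein-coding genes. For 3945 others the outermost 5′ end was used, with the strand of the GENCODE gene of the same name. Regions were counted where they overlapped the hairpin extended by 10 or 50 kb, and gaps run from edge to edge. Background shares had 95% Wilson intervals of 35.7 to 41.1% (10 kb) and 70.9 to 75.8% (50 kb). Counting was tested on simulated data, where it recovered the planted number for 1228 of 1228 microRNA genes. No p-value was computed, since samples have no values and genes are not replicates.

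Named genes were the members, their hosts and neighbours, the nearest and strongest regions of each member, and fixed lists by tissue and pathway. A gene of the target list is counted but not reported here by itself. Members and lists were chosen with earlier results of these data known. Motifs, and the regions named besides these, were chosen after values were seen. The alternatives tried were other windows, region midpoints, the 16006 regions with the lowest q-values, all lines, and leaving out regions at coding start sites. Python 3.11.15, numpy 2.4.6, pandas 2.3.3 and matplotlib 3.10.9 were used.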

Additional observations from a re-analysis of the deposited data

How the results depend on the processing

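The number of members with a region stayed within 1.5 times its value under all alternatives tried, from 6 (5 kb) to 8 (20 kb) of 10 around the window of 10 kb, and from 8 to 9 (100 kb) around that of 50 kb. In the 16006 regions with the lowest q-values, 7 and 8 members still had a region. Distinct regions within 50 kb numbered 39, against 19 among those 16006 and 98 when every line was counted, which are fewer and more by construction. Mir205 went from 10 to 3 regions among those 16006, Mir31 from 7 to 2 and Mir200c from 8 to 7. The 4 alternatives tried by member only drop or recount regions already in the window. The counts of 0 for Mir1a-1 and Mir223 could therefore not change. Within 100 kb, Mir1a-1 had 1 region and Mir223 had 0. Of the 40 counts by member under alternatives, 26 stayed within 1.5 times, including those of Mir1a-1 and Mir223 that were fixed at 0. The share of all microRNA genes with a region within 10 kb, 38.4%, became 24.0% among those 16006, 22.9% without regions at protein-coding start sites and 42.9% with genes under 10 kb apart joined into loci. For the build, the share of 5′ ends was 41.6% on GRCm38.p6 and 5.30% on GRCm39, and with ends shifted by 50 kb 4.10% and 4.47%. Leaving out samples could not be done. No paired analysis was possible because the list pools the samples. Depth per sample is unknown, so a window without a region shows only that none passed the authors' threshold.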
